A study of Mus musculus with 8 samples.

Results

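Cluster C18 is one of the non-epithelial clusters in a single-cell RNA sequencing (scRNAseq) study of the mouse mammary gland, and the study labels its cells as fibroblasts. Its members were taken as the barcodes that the deposited annotation places in C18, marks as non-epithelial and lets pass the quality control, joined to the count matrices by sample and barcode. In all, 529 of 25009 cells met this rule, and 523 of them lay in the 7 libraries that held at least 20 such cells. The remaining 6 cells came from 1 post-involution mouse and entered only an alternative fit with libraries of at least 5 cells.

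Fibroblasts of the mammary gland lie in the stroma around the ducts and alveoli and in the fat pad. They make the collagens, elastic fibres, proteoglycans and adhesive glycoproteins of the extracellular matrix, secrete growth factors and Wnt, IGF and BMP pathway proteins that act on the epithelium, and shape the chemokine supply to immune cells. Fibroblasts of several mouse organs fall into an adventitial state, marked by Pi16 and Dpp4, and a parenchymal state, marked by Col15a1.

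Cells came from C57BL/6N females at 4 stages with 2 mice each: nulliparous (NP) at 8 weeks of age, gestation (G) at day 14.5, lactation (L) at day 6, and post-involution (PI) at day 11 after natural weaning; no age was given for the mated mice. Glands freed of lymph nodes were digested with collagenase and hyaluronidase, and live EpCAM-positive cells negative for CD31, CD45 and Ter119 were sorted and captured by droplet-based 3′ sequencing with unique molecular identifiers (UMIs). The gate was set to remove stromal cells, so C18 holds those fibroblasts that were sorted in spite of it. Neither the number of C18 cells nor their makeup therefore stands for the fibroblasts of the gland. The numbers 1 and 2 name the mice of a stage and pair no samples. By vaginal smear, the study classed NP1, NP2 and PI2 as in oestrus and PI1 as in dioestrus.

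C18 was a small share of each library. It made up 1.11% of the cells of NP1 (95% exact Clopper-Pearson interval 0.711 to 1.64%) and 2.72% of NP2 (2.06 to 3.52%). The shares were 1.35% in G1 (0.955 to 1.84%) and 1.03% in G2 (0.702 to 1.46%). L1 stood apart with 284 cells, 4.95% of the library (4.40 to 5.55%), against 52 cells and 1.45% in L2 (1.09 to 1.90%). The PI mice gave 6 cells, 0.414% (0.152 to 0.899%), and 38 cells, 0.907% (0.642 to 1.24%). The shares within a stage differed as much as those between stages, since the L1 and L2 intervals did not overlap and the L2 interval overlapped those of NP1, G1, G2 and PI2. No test between stages was run, because the sort sets these shares as well as the gland. The intervals cover counting error only.

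**Figure D1:**
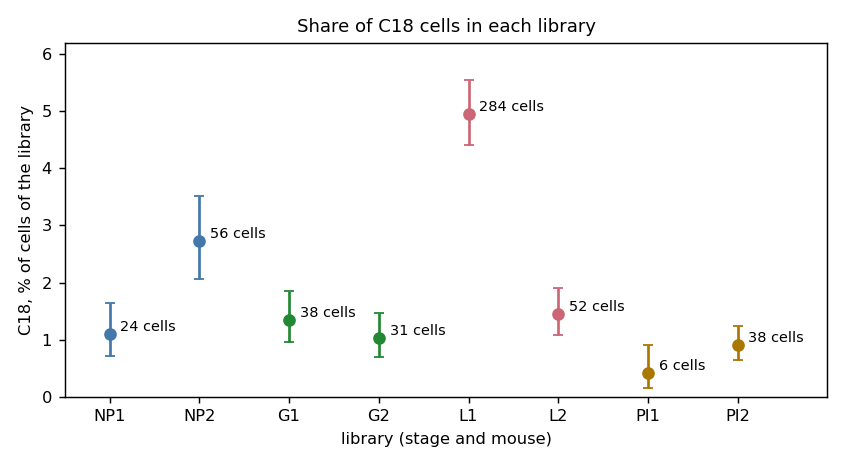
Share of C18 among the cells of each of the 8 libraries in percent, with 95% exact Clopper-Pearson intervals and the number of C18 cells beside each point. L1, with 284 cells, lies above the other 7 libraries, and PI1, with 6 cells, lies lowest.

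The C18 cells of the 7 libraries had 3431 to 5379 UMIs per cell at the median of a library, and their summed UMIs ranged from 137920 in PI2 to 1267851 in L1. Expression is given below as CPM, the UMIs of a gene summed over the C18 cells of a mouse scaled to 1000000 UMIs of all genes in these cells. A count of 3 UMIs corresponded to between 2.37 CPM in L1 and 21.8 CPM in PI2, so values of this size cannot be told from no expression. The log2 values of the genes tested correlated between the 2 mice of a stage with r = 0.901 (NP), 0.883 (G) and 0.941 (L) across 5000 genes, which are not independent replicates. Barcodes shared between libraries, 791 in number, had been left out of the series by its authors.

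The 3 markers Col1a1, Col3a1 and Dcn were set beside the fibroblast label. Col1a1 and Col3a1 encode chains of the fibrillar collagens I and III, and Dcn encodes decorin, a small proteoglycan that binds collagen fibrils. Col1a1 UMIs were found in 95.4% of the 523 C18 cells, compared with 10.3% of endothelial C19 cells, 3.84% of immune C17 cells, 2.89% of basal cells and 1.91% of luminal cells. When every cell was thinned to 1000 UMIs the shares were 80.7% in C18, 2.34% in C19, 0.810% in C17, 0.778% in basal and 0.259% in luminal cells. Col3a1 was found in 94.5% of C18 cells (84.2% when thinned) and in 3.39% of luminal cells (0.419%), with 44.9% (25.8%) in C15, the Procr-positive basal cluster, and 18.3% (4.48%) in basal cells. C15 was also nearer to C18 than C19 was in Col1a1, with means of 118 CPM in C15, 28.5 in C19 and 5011 in C18 of the L mice. Dcn was found in 99.0% of C18 cells (97.7%), in 72.3% of basal cells (32.2%) and in 4.34% of luminal cells (0.664%), and is thus shared with the basal layer. The median depth was 4473 UMIs in C18, 4830 in C19, 5503 in C17, 3124 in C15, 4568 in basal and 8376 in luminal cells. Each of the 3 markers, counted singly, was thus found in nearly every C18 cell, and the fibroblast name is kept. The study had named the cluster from collagens and fibronectin, so the collagen shares are no independent check of the name.

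Since the cluster was built on the same transcripts, its difference from other clusters is described and not tested. In the 2 L mice, which had enough cells of C14 (myoepithelial), C15, C17 and C19 for comparison, the highest ratios of C18 to the highest of these 4 clusters were led by matrix and signalling genes. Efemp1, a fibulin, stood at 540 CPM and 278 times the next cluster. Sfrp2, a secreted Wnt modulator, stood at 911 CPM and 261 times, and Mfap4, an elastic fibre protein, at 1536 CPM and 249 times. Lum, the proteoglycan lumican, followed with 2104 CPM and 209 times. Prrx2, a mesenchymal transcription factor, was at 109 CPM and 275 times, and Pdgfra, the PDGF receptor that marks many fibroblasts, at 199 CPM and 102 times. Pi16 and Mfap5 were at 2115 and 2823 CPM, 129 and 118 times the next cluster. Genes of adventitial fibroblasts therefore stood among the leading genes of the cluster in L.

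Markers of other cells were low but present. The 11 pericyte markers summed to between 106 and 366 CPM in the 7 libraries, and Pdgfrb, which fibroblasts also express, was the highest member in each. The 12 endothelial markers summed to between 59.3 and 177 CPM. The 14 immune markers summed to between 140 and 254 CPM in 6 libraries and to 804 CPM in G2, where Lyz2 alone reached 213 CPM and 1 cell carried 68 immune marker UMIs. Epithelial and milk transcripts differed with stage and are given with their own results below.

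Stages were compared by the edgeR quasi-likelihood test on the UMIs summed per mouse, over 5000 genes that passed the filter on low counts, with p-values adjusted by the Benjamini-Hochberg method and a threshold of 0.05. The replicates are separate mice, so the p-values rest on the spread between mice of a stage. The spread of a gene had 3 residual degrees of freedom of its own. It was weighted with a spread shared over genes of 15.7 prior degrees of freedom, so the small p-values rest largely on the shared spread. PI had 1 library, PI2, whose spread was assumed to be that of the other stages. The 6 comparisons share their samples, and the values of each are given side by side without a test of their overlap. G against NP called 1554 genes (31.1% of those tested), 771 higher (15.4%) and 783 lower (15.7%). L against NP called 1916 genes (38.3%), 900 higher (18%) and 1016 lower (20.3%). L against G called 392 genes (7.84%), with 4.5% of genes higher and 3.34% lower. CPM did not overlap between the mice of the 2 stages in 3335 of 5000 genes in G against NP. This held for 3503 genes in L against NP and 2594 in L against G, so non-overlap alone was common. PI called 55 genes against NP (1.1%), 470 against G (9.4%) and 342 against L (6.84%). DESeq2 called fewer genes, 549 in G and 512 in L against NP, and without NP2 the edgeR counts were 746 and 778. In bulk sums like these, a smaller share of cells in a state and less RNA per cell cannot be told apart.

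C18 cells had the highest fibrillar collagen levels in gestation, lower levels in lactation and the lowest in the post-involution mouse. All 8 fibrillar collagen genes tested rose in G against NP, where 15.4% of all genes rose, with a median log2 fold change of 1.84 against 0.03 over all genes. The calls of Col5a1 (adjusted p = 0.166 without NP1 and 0.116 without G2) and Col5a3 (0.0742 without NP2 and 0.248 without G2) rested on single mice. Col1a1 was at 1632 and 3238 CPM in the NP mice, 8458 and 11350 in G, 5176 and 4847 in L and 1073 in PI2. The 4 stages did not overlap in this gene, with PI2 as the only PI library. It rose in G by a log2 fold change of 1.87 ± 0.25 (SE; adjusted p = 3.1e-05, edgeR) and was higher in L than in NP by 0.98 ± 0.24 (adjusted p = 0.0046). Col1a2, which encodes the second chain of collagen I, was at 2513 and 4965 CPM in NP, at 11360 and 13780 in G, at 7137 and 6208 in L and 1987 in PI2. Its rise in G was 1.60 ± 0.24 (adjusted p = 9.6e-05). Col3a1 was at 2144 and 5556 CPM in NP, at 14460 and 16150 in G, at 8026 and 8085 in L and 1204 in PI2. The G mice lay highest and PI2 lowest, and Col3a1 was 1 of 55 genes called between PI2 and NP (−1.74 ± 0.37, adjusted p = 0.024).

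Between L and G, 6 of the 8 fibrillar collagen genes fell (3.34% of all genes fell), with a median of −0.97 against −0.07 over all genes. Col5a2, whose product joins collagen I fibrils and limits their width, was at 1657 and 1828 CPM in G and at 559 and 607 in L, and fell by −1.49 ± 0.23 (adjusted p = 0.00032). Col1a1 fell by −0.89 ± 0.24 (adjusted p = 0.025) and Col1a2 by −0.82 ± 0.23 (adjusted p = 0.033), while Col3a1 missed the threshold (−0.84 ± 0.27, adjusted p = 0.066). Without the mouse G2, the adjusted p was 0.265 for Col1a1 and 0.243 for Col1a2, and without L2 it was 0.0671 for Col1a2, so these 2 calls between L and G rested on single mice. Col11a1, a minor fibrillar chain, had 22 UMIs in G and none in NP, at least 9.06-fold higher in G (floor of 3 UMIs over the group). Its call between G and NP was lost without NP2 (adjusted p = 0.101). In PI2 against G, 6 of 8 genes fell (4.36% of all genes fell), Col1a1 by −3.11 ± 0.35 (adjusted p = 1.8e-05).

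The DNA before the RefSeq start of 2 of these genes is shown because they moved together. Col1a1 lies at chr11:94936224-94953042, Col1a2 at chr6:4504814-4541544 and Col3a1 at chr1:45311538-45349706 of mm10 (GRCm38). CCAAT, the box bound by NF-Y in the Col1a2 promoter, was searched on both strands in the 250 bases before the RefSeq transcription start (GRCm38.p6), and its match is in capitals. 33.9% of all 32851 promoters of this length hold CCAAT. The Col1a2 window, chr6:4505368-4505617 on the + strand, held it once, starting 109 bases before the start site, and the Col3a1 window, chr1:45311288-45311537 on the + strand, did not. The Col1a2 window lies inside the gene span given above, because the RefSeq start is downstream of the GENCODE start of that span.
Col1a2: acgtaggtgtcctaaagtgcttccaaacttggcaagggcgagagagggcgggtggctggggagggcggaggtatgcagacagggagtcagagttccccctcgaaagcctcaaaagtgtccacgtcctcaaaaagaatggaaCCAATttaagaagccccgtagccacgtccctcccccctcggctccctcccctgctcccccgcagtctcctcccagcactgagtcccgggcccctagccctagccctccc
Col3a1: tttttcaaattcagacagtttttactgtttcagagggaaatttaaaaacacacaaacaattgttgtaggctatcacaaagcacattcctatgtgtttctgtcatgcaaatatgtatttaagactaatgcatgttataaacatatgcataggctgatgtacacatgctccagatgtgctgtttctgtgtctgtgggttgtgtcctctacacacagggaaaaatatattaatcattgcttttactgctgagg

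The collagens of basement membranes, the sheet on which epithelium rests, differed more between G and L than the fibrillar ones. All 4 genes tested rose in G against NP (median 1.80) and all 4 fell in L against G (median −2.16). Of all genes, 15.4% rose in G against NP and 3.34% fell in L against G. Col4a1 was at 657 and 612 CPM in NP, at 1508 and 2160 in G, at 577 and 473 in L and 334 in PI2. The G mice alone stood high, and the fall in L was −1.70 ± 0.23 (adjusted p = 0.00012). Col15a1 (chr4:47208161-47313167), which links basement membranes to the fibrils beneath, was at 123 and 172 CPM in NP, at 924 and 1396 in G, at 283 and 195 in L and 72.5 in PI2. It rose in G by 2.78 ± 0.30 (adjusted p = 5.6e-06) and fell in L by −2.13 ± 0.27 (adjusted p = 5.1e-05). Col18a1, the source of endostatin, rose in G to 462 and 419 CPM and was below NP in L, at 78.9 and 47.7 CPM against 173 and 156 (−1.28 ± 0.31, adjusted p = 0.0037). Of 7 other collagens, 6 rose in G and none fell. Among them Col6a3, a chain of the microfibrillar collagen VI, was at 260 and 415 CPM in NP, at 1078 and 1356 in G and at 476 and 286 in L. It rose by 1.66 ± 0.29 (adjusted p = 0.00041) and fell again in L by −1.54 ± 0.27 (adjusted p = 0.001). Col14a1, which binds the surface of fibrils, showed no such peak, with 466 and 499 CPM in G against 433 and 409 in NP.

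Genes that fold, trim and crosslink collagen were also higher in both G and L than in NP. Of 20 tested, 11 rose and 1 fell in G (median 0.88, where 15.4% of all genes rose), and 8 rose and none fell in L (median 0.62, where 18% of all genes rose). Serpinh1, the collagen chaperone of the endoplasmic reticulum, was at 1386 and 1074 CPM in NP, at 2997 and 2912 in G, at 2559 and 2072 in L and 1805 in PI2. Its rise was 1.13 ± 0.20 in G (adjusted p = 0.00054) and 0.88 ± 0.20 in L (adjusted p = 0.0028). Lox, the lysyl oxidase that crosslinks collagen and elastin, was at 101 and 65.6 CPM in NP and at 308 and 339 in G (1.90 ± 0.37, adjusted p = 0.0011). Among the small leucine-rich proteoglycans, 4 of 11 rose in G and 4 in L against NP (15.4 and 18% of all genes). Bgn (biglycan) was at 361 and 515 CPM in NP, at 1585 and 2001 in G and at 2213 and 2007 in L, and was higher in L by 2.19 ± 0.23 (adjusted p = 2e-06). Lum was at 4809 and 4813 CPM in G against 1473 and 1474 in NP and 1897 and 2311 in L. Lum rose in G by 1.57 ± 0.19 (adjusted p = 1.4e-05) and fell in L by −1.11 ± 0.19 (adjusted p = 0.0006). Ogn (osteoglycin) went the other way, with 624 and 941 CPM in L against 335 and 312 in G (1.34 ± 0.26, adjusted p = 0.002). Dcn passed the test in none of the 6 comparisons. It was at 8087 and 5640 CPM in NP, at 7874 and 6927 in G, at 8918 and 9728 in L and 8353 in PI2, and the stages NP and G overlapped.

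Elastic fibre genes, in contrast to most collagens, were highest in lactation. Of 15 tested, 9 rose in L against NP (median 1.09) and none fell, and 8 rose and 3 fell in L against G, where 4.5% of all genes rose. Eln (chr5:134702593-134747323), which encodes elastin, was at 57.8 and 169 CPM in NP, at 475 and 445 in G, at 1536 and 1695 in L and 160 in PI2. The NP, G and L mice formed 3 separate levels. The rise was 3.62 ± 0.31 in L against NP (adjusted p = 2.5e-07) and 1.90 ± 0.28 in L against G (adjusted p = 0.0002), and PI2 was lower than L by −3.33 ± 0.43 (adjusted p = 0.00013). Mfap4 was at 65.0 and 116 CPM in NP, at 335 and 572 in G, at 1542 and 1530 in L and 72.5 in PI2, a rise of 3.93 ± 0.32 in L against NP (adjusted p = 8.5e-08). The fibrillin gene Fbn1 was at 303 and 297 CPM in NP, at 557 and 725 in G and at 888 and 854 in L. Its difference between L and G did not pass (0.54 ± 0.23, adjusted p = 0.18). Fbln1 and Fbln2, which encode fibulins, were higher in L than in G by 2.37 ± 0.41 (adjusted p = 0.00082) and 1.26 ± 0.25 (adjusted p = 0.003). The 3 members that fell in L against G were Fbn2, Mfap2 and Emilin1.

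**Figure D2:**
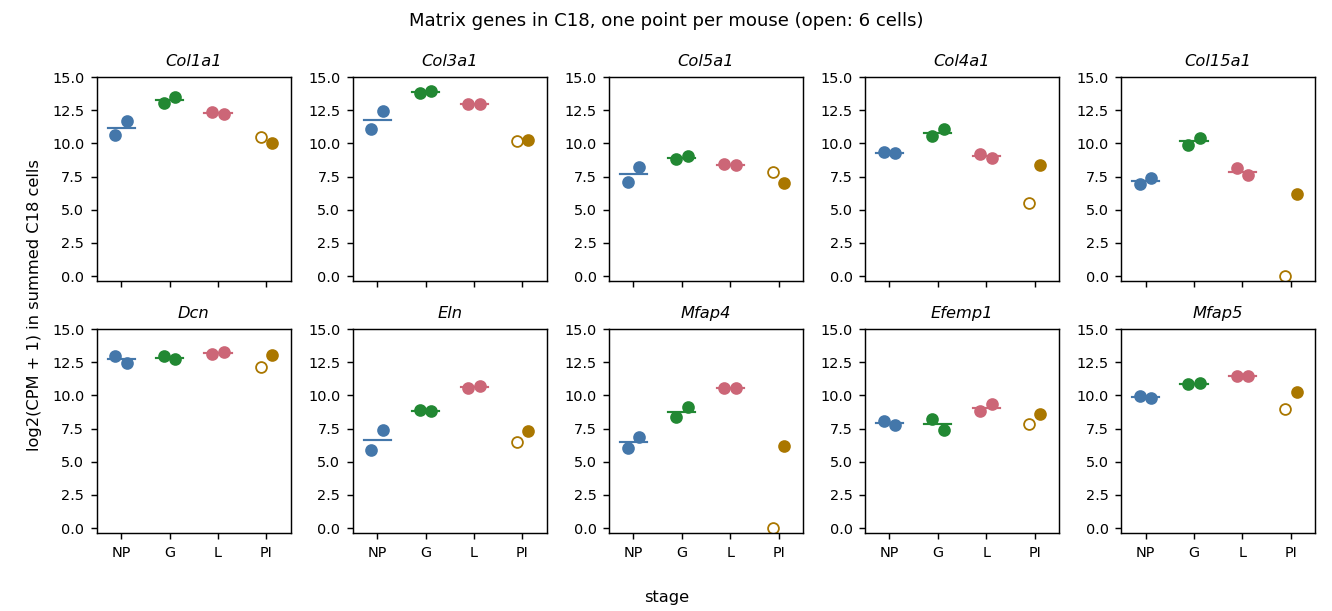
Levels of 10 matrix genes in C18 as log2(CPM + 1), with a point for each mouse, a line at the mean of the 2 mice of a stage and an open point for PI1 with its 6 cells. Col1a1, Col3a1, Col4a1 and Col15a1 are highest in G, Eln and Mfap4 are highest in L, and Dcn stays near the same level.

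Of 21 adhesive and matricellular glycoprotein genes, which tune how cells hold on to matrix, 14 rose and 3 fell in L against NP (median 1.09). Of all genes, 18% rose and 20.3% fell. Sparc, a collagen-binding glycoprotein, was at 4657 and 4188 CPM in NP, at 19000 and 22180 in G, at 18320 and 14990 in L and 2661 in PI2. G and L did not differ in Sparc beyond the spread (−0.22 ± 0.16, adjusted p = 0.5), whereas both lay above NP (2.08 ± 0.17 in G, adjusted p = 1.7e-07). Postn (periostin), which aids collagen assembly, was at 765 and 1274 CPM in NP, at 2454 and 3091 in G, at 1596 and 1942 in L and 152 in PI2. It rose in G by 1.28 ± 0.24 (adjusted p = 0.00082) and was lower in PI2 than in NP by −2.81 ± 0.40 (adjusted p = 0.00067). Fn1 (fibronectin), 1 of the genes by which the cluster had been named, was at 1184 and 2142 CPM in NP, at 2739 and 2426 in G and at 1693 and 1543 in L, and no difference between these 3 stages passed. Thbs1 (thrombospondin 1) moved down, from 1242 and 887 CPM in NP to 274 and 312 in L (−1.91 ± 0.26, adjusted p = 2e-05).

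Of 23 matrix proteases and inhibitors, 7 were higher and 4 lower in G against NP (15.4 and 15.7% of all genes), and 5 were higher and 3 lower in L (18 and 20.3% of all genes), so the counts in L lay near those over all genes. Mmp14, the membrane-bound collagenase, was at 267 and 312 CPM in NP, at 693 and 711 in G, at 232 and 295 in L and 247 in PI2. It rose in G by 1.12 ± 0.25 (adjusted p = 0.003) and fell in L by −1.35 ± 0.24 (adjusted p = 0.0011). Mmp3 (stromelysin 1), which degrades proteoglycans and basement membrane, was at 1646 and 1555 CPM in NP, at 1268 and 964 in G, at 384 and 629 in L and 1479 in PI2. L lay lowest and PI2 lay with the NP mice, and Mmp3 was lower in L than in NP by −1.74 ± 0.25 (adjusted p = 3.5e-05). Mmp2, a gelatinase, passed in none of the 6 comparisons, with 747 to 1040 CPM over the 7 libraries. Serpine2, a protease inhibitor of the cell surface, was at 50.5 and 37.5 CPM in NP, at 240 and 372 in G and at 27.6 and 30.3 in L. It rose in G by 2.70 ± 0.37 (adjusted p = 4.5e-05) and fell in L by −3.31 ± 0.34 (adjusted p = 9.6e-06).

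Growth factor genes whose products act on epithelium were mostly lower in lactation than in NP. Of 17 tested, 9 fell (20.3% of all genes fell) and 2 rose (18%) in L against NP, with a median of −1.03. In G, 5 fell and 3 rose (15.7 and 15.4% of all genes). Csf1, the macrophage growth factor, was at 599 and 512 CPM in NP, at 140 and 133 in G, at 74.9 and 99.7 in L and 464 in PI2, a fall of −2.78 ± 0.27 in L (adjusted p = 6.4e-07). Vegfa, which drives vessel growth, was at 166 and 272 CPM in NP, at 18.1 and 26.6 in G, at 33.1 and 47.7 in L and 225 in PI2. For both genes PI2 lay beside the NP mice and away from G and L. Mdk (midkine) peaked in G, with 589 and 745 CPM against 181 and 153 in NP and 103 and 73.7 in L. Mdk fell in L against G by −2.73 ± 0.27 (adjusted p = 9.6e-06). Igf1, the stromal growth factor of duct elongation, was at 195 and 99.9 CPM in NP, at 480 and 226 in G and at 390 and 594 in L, higher in L by 1.76 ± 0.36 (adjusted p = 0.0012). Without NP2 the adjusted p of Igf1 was 0.0689 in L. Areg (amphiregulin), better known from epithelium, had 36 UMIs in NP and none in G, at least 9.71-fold lower in G. Hgf and Fgf7, paracrine factors of fibroblasts, passed in none of the comparisons, and Fgf10 was too low to be tested.

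Binding proteins and modulators of these pathways also differed by stage. Among the 6 IGF binding proteins tested, Igfbp4 was at 361 and 665 CPM in NP, at 2382 and 2878 in G, at 1070 and 910 in L and 1015 in PI2, and rose in G by 2.17 ± 0.26 (adjusted p = 1.1e-05). Igfbp5 was lowest in G, at 281 and 79.8 CPM, against 390 and 934 in NP and 887 and 1053 in L. It fell in G by −1.99 ± 0.41 (adjusted p = 0.0016; 0.0919 without NP2) and was higher in L than in G by 2.44 ± 0.40 (adjusted p = 0.00051). Of 8 Wnt ligands and modulators, 5 rose and none fell in G against NP (median 1.80, where 15.4% of all genes rose). Wnt5a, a non-canonical Wnt ligand, was at 14.4 and 6.25 CPM in NP, at 49.8 and 53.2 in G and at 52.9 and 43.4 in L (2.36 ± 0.67 in G, adjusted p = 0.013, or 0.0608 without G1). Among 17 genes of the TGF-beta and BMP axis, 4 rose and 6 fell in G (15.4 and 15.7% of all genes). In L, 5 rose and 2 fell (18 and 20.3% of all genes). Id3, a target of BMP signalling, was at 260 and 194 CPM in NP, at 1050 and 1137 in G and at 710 and 1062 in L, and rose in G by 2.16 ± 0.27 (adjusted p = 1.9e-05).

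Of 12 hormone and growth factor receptors, 1 rose and 2 fell in G (15.4 and 15.7% of all genes). In L, 1 rose and 3 fell (18 and 20.3% of all genes), so the falls lay near the share over all genes. Fgfr1 was at 823 and 978 CPM in NP, at 127 and 199 in G, at 136 and 208 in L and 602 in PI2, and was lower by −2.64 ± 0.30 in G (adjusted p = 7.3e-06) and −2.52 ± 0.28 in L (adjusted p = 2.8e-06). Esr1, the oestrogen receptor, passed in none of the comparisons, with 19.9 to 65.3 CPM over the 7 libraries, and Pgr, the progesterone receptor, was too low to be tested. Prlr, the prolactin receptor, had 29 UMIs in NP and none in G, at least 7.82-fold lower in G, and luminal cells are its main site in the gland. Pdgfra was called in none of the comparisons, and lay at 137 and 319 CPM in NP, at 340 and 299 in G and at 185 and 212 in L. Among 21 transcription factors of fibroblasts, Osr1 was at 7.22 and 6.25 CPM in NP, at 208 and 146 in G, at 167 and 156 in L and 21.8 in PI2. The G and L mice lay together in Osr1, and the rise was 4.57 ± 0.54 in G (adjusted p = 1e-05) and 4.52 ± 0.51 in L (adjusted p = 3.6e-06).

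Genes of the adventitial fibroblast state were low in gestation and high in lactation. None of the 13 rose and 6 fell in G against NP (median −0.79), 12 rose in L against NP (median 1.24), and 11 rose in L against G (median 2.50). Of all genes, 15.7% fell in G against NP, 18% rose in L against NP and 4.5% rose in L against G. Pi16 (chr17:29317680-29330593), a secreted peptidase inhibitor, was at 700 and 740 CPM in NP, at 81.5 and 93.1 in G, at 2084 and 2146 in L and 1204 in PI2. The 2 mice of each stage lay close together and the 4 stages did not overlap. It fell in G by −3.20 ± 0.27 (adjusted p = 2.9e-07), was higher in L than in NP by 1.5 ± 0.21 (adjusted p = 2.9e-05) and higher in L than in G by 4.70 ± 0.26 (adjusted p = 1.8e-09). Anxa3 was at 267 and 262 CPM in NP, at 122 and 106 in G, at 627 and 598 in L and 1088 in PI2, and was the 1 member called between PI2 and NP (1.99 ± 0.28, adjusted p = 0.00067). Sema3c, a guidance ligand, was at 159 and 219 CPM in NP, at 63.4 and 33.2 in G and at 385 and 581 in L, lower in G by −2.08 ± 0.40 (adjusted p = 0.0011). Dpp4, a surface peptidase, was at 65.0 and 68.7 CPM in NP, at 36.2 and 19.9 in G and at 133 and 156 in L. Its fall in G (−1.33 ± 0.48, adjusted p = 0.041) and that of Cd55, which shields cells from complement (−1.28 ± 0.44, adjusted p = 0.035), passed only with every mouse kept, with adjusted p between 0.0585 and 0.177 for the 2 genes when 1 NP or G mouse was removed.

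Pi16 and Col15a1 were also counted cell by cell. Pi16 UMIs were found in 45.8 and 50% of the NP cells, 21.1 and 16.1% of the G cells, 78.5 and 59.6% of the L cells and 57.9% of the PI2 cells. Thinned to 1000 UMIs per cell, the shares came to 27.5 and 32.8% in NP, to 6.79 and 6.32% in G, to 58.8 and 47.3% in L and 42.2% in PI2. The order of the stages was the same at equal depth. Basal cells, taken as cells that should lack Pi16, gave 2.38% (0.613% when thinned) at a median of 4568 UMIs. Col15a1 was found in 45.8 and 41.1% of NP cells, 92.1 and 90.3% of G cells, 45.1 and 34.6% of L cells and 18.4% of PI2 cells, and in 2.58% of basal cells. Thinned, the Col15a1 shares came to 11 and 14.4% in NP, to 54.8 and 68.3% in G, to 18.2 and 14.8% in L and 6.80% in PI2, with 0.437% in basal cells. Cells with Col15a1 and no Pi16 UMI numbered 30 of 38 in G1 and 25 of 31 in G2. Cells with Pi16 and no Col15a1 UMI numbered 127 of 284 in L1, 22 of 52 in L2 and 20 of 38 in PI2, while 96 cells of L1 had both.

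**Figure D3:**
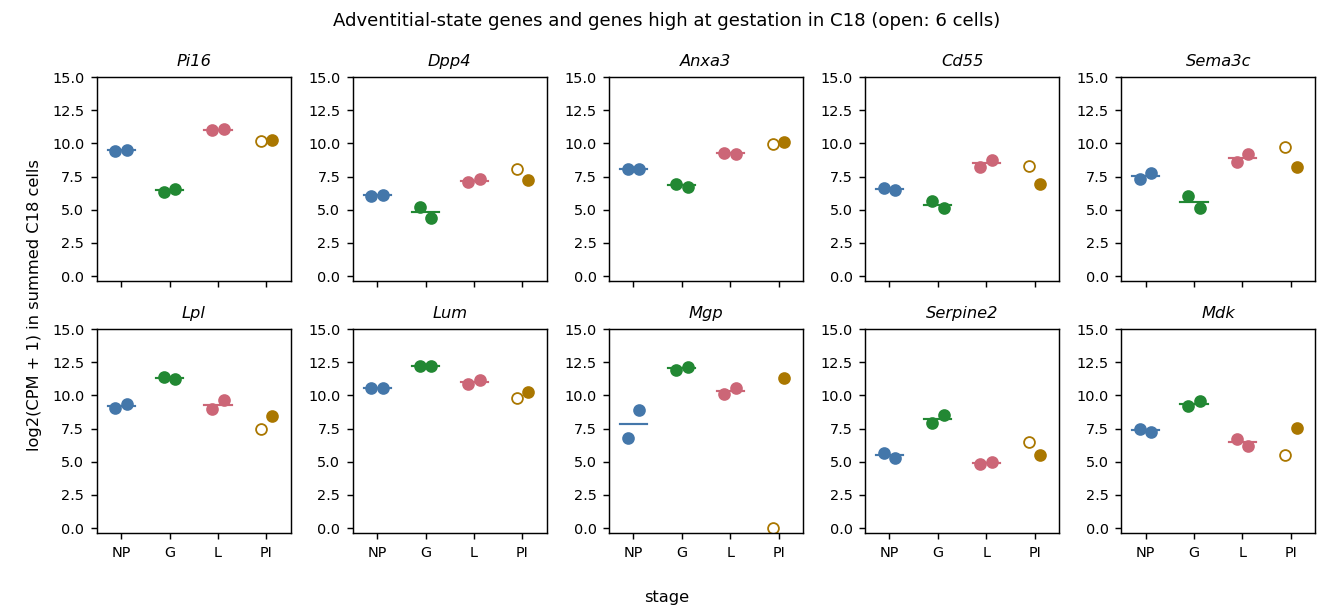
Levels of 10 genes in C18 as log2(CPM + 1), with a point for each mouse, a line at the mean of the 2 mice of a stage and an open point for PI1 with its 6 cells. The adventitial genes Pi16, Dpp4, Anxa3, Cd55 and Sema3c are lowest in G, and Lpl, Lum, Mgp, Serpine2 and Mdk are highest in G.

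In the 2 lactating mice, Col4a1 and Lum were lower in cells with Pi16 and no Col15a1 than in cells with Col15a1 and no Pi16. These cells and genes were picked after their values had been seen and are described without a test. Col4a1 was at 205 CPM in the 127 Pi16 cells and 1264 CPM in the 32 Col15a1 cells of L1, and at 143 CPM in the 22 Pi16 cells and 1106 CPM in the 9 Col15a1 cells of L2. Lum was at 1152 and 2717 CPM in L1 and at 1634 and 3528 CPM in L2, in the same order of cells. Col1a1 had opposite directions in the 2 mice, with 3070 CPM in the Pi16 cells and 6276 CPM in the Col15a1 cells of L1 against 4142 and 2153 CPM in L2. Col1a2, Col3a1 and Eln also changed direction between the mice, and Fbln1 was at 288 and 94.4 CPM in L1 but at 219 and 209 CPM in L2. The median depth of the Pi16 and Col15a1 cells was 3240 and 4217 UMIs in L1 and 4450 and 3436 UMIs in L2.

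Lpl (chr8:68880491-68907448), the lipoprotein lipase that fat-pad and preadipocyte-like cells release, was at 520 and 643 CPM in NP, at 2653 and 2380 in G, at 501 and 806 in L and 348 in PI2. It rose in G by 1.96 ± 0.25 (adjusted p = 1.9e-05) and fell in L by −1.88 ± 0.24 (adjusted p = 5.1e-05). Of 9 adipocyte and progenitor genes tested, Lpl alone rose in G and 3 fell (15.4 and 15.7% of all genes). Adipoq, Plin1, Cidec and Lep, which define adipocytes, were too low to be tested. Mgp, the matrix Gla protein that keeps soft tissue from calcifying, was at 108 and 478 CPM in NP, at 3831 and 4627 in G, at 1129 and 1483 in L and 2501 in PI2. It rose in G by 3.59 ± 0.37 (adjusted p = 3.5e-06) and was higher in PI2 than in NP by 2.92 ± 0.41. The 6 cells of PI1 held no Mgp UMI among 22155 UMIs, so the higher level of PI2 was not shared by PI1.

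Inflammatory chemokine genes such as Cxcl1, Ccl2 and Cxcl2 were highest in NP. Of 15 chemokines and cytokines, 6 fell and 4 rose in G against NP, 8 fell and 3 rose in L against NP, and 8 were higher and 1 lower in PI2 than in L, where 4.36% of all genes were higher and 2.48% lower. Of all genes, 15.7% fell and 15.4% rose in G against NP, and 20.3% fell and 18% rose in L against NP. Cxcl1, a neutrophil attractant, was at 10040 and 6286 CPM in NP, at 2074 and 1615 in G, at 715 and 1812 in L and 3451 in PI2. It fell in G by −2.28 ± 0.31 (adjusted p = 4.4e-05) and in L against NP by −2.77 ± 0.32 (adjusted p = 4.5e-06). Ccl2, a monocyte attractant, was at 10700 and 5665 CPM in NP, at 2667 and 1469 in G, at 581 and 1457 in L and 3611 in PI2. The 2 NP mice stood above the rest for both genes, and PI2 came next. Cxcl2 was at 1928 and 1774 CPM in NP, at 36.2 and 19.9 in G, at 103 and 26.0 in L and 486 in PI2, a fall of −6.10 ± 0.44 in G (adjusted p = 6.1e-08). Cxcl12, which retains blood cell precursors and lymphocytes, took the other direction, at 260 and 300 CPM in NP, at 634 and 605 in G and at 659 and 815 in L (1.32 ± 0.24 in L, adjusted p = 0.00048). The complement gene C3 was at 635 and 434 CPM in NP, at 199 and 73.1 in G, at 324 and 468 in L and 870 in PI2, lower in G than in NP by −2.01 ± 0.36 (adjusted p = 0.00049). In basal cells Cxcl1 was at 592 and 372 CPM in NP, at 89.0 and 67.3 in G and at 127 and 80.4 in L, so the NP mice were the highest there too.

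The oxidative stress genes Hmox1, Txnrd1 and Gclm were higher in NP and in PI2 than in G and L. Hmox1 (chr8:75093621-75100589), the haem oxygenase, was at 2744 and 2561 CPM in NP, at 408 and 452 in G, at 73.4 and 73.7 in L and 1878 in PI2. PI2 lay below both NP mice, and the 6 cells of PI1 lay above them. Hmox1 did not overlap between the mice of NP, G and L, and the 2 mice of each of these stages were close. It was lower in L than in NP by −5.22 ± 0.25 (adjusted p = 8.9e-11), lower in L than in G by −2.45 ± 0.25 (adjusted p = 9.6e-06), and higher in PI2 than in L by 4.67 ± 0.27 (adjusted p = 2.4e-09). Txnrd1, a thioredoxin reductase, was at 607 and 547 CPM in NP, at 72.5 and 79.8 in G, at 48.1 and 99.7 in L and 421 in PI2. Gclm, which takes part in glutathione synthesis, was at 397 and 275 CPM in NP, at 54.3 and 53.2 in G, at 34.7 and 26.0 in L and 247 in PI2. Slc7a11, the cystine importer, was at 173 and 340 CPM in NP and at most 13.3 CPM in each mouse of G and L, and had no UMI in PI2, at least 13.3-fold lower than in NP. The metallothionein Mt2 was at 9307 and 9156 CPM in NP, at 1929 and 1403 in G, at 2614 and 2540 in L and 4133 in PI2, lower in G by −2.61 ± 0.19 (adjusted p = 6.1e-08). Over the list of 13 iron, metallothionein and antioxidant genes, 7 fell and 1 rose in G and 6 fell and 3 rose in L against NP. Of all genes, 15.7% fell and 15.4% rose in G, and 20.3% fell and 18% rose in L. In basal cells Hmox1 was at 170 and 149 CPM in NP, at 93.3 and 83.7 in G and at 63.9 and 72.1 in L.

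Immediate-early and heat-shock genes, which tissue digestion can switch on, had the opposite order. Of 18 tested, 14 rose in G (median 1.37) and 17 in L against NP (median 2.76), 13 rose in L against G (median 1.11), 8 were higher in PI2 than in NP, where 0.68% of all genes were, and none of the 18 was lower in these 4 comparisons. Of all genes, 15.4% rose in G and 18% in L against NP, and 4.5% rose in L against G. The summed level of the 18 genes lay at 4852 and 5137 CPM in NP, at 16360 and 15390 in G, at 27930 and 36660 in L and 11970 in PI2. Fos was at 181 and 550 CPM in NP, at 3210 and 2998 in G, at 4361 and 6489 in L and 921 in PI2, and was higher in L than in NP by 3.75 ± 0.33 (adjusted p = 2.8e-07). Jun was at 383 and 428 CPM in NP, at 2563 and 2626 in G, at 4010 and 5757 in L and 1414 in PI2, higher in L than in NP by 3.53 ± 0.23 (adjusted p = 7.1e-09). Hspa1a (chr17:34969190-34972156), the inducible Hsp70, was at 0 and 21.9 CPM in NP, at 955 and 891 in G, at 2487 and 3095 in L and 174 in PI2. It rose by 5.78 ± 0.42 in G (adjusted p = 6.1e-08) and by 7.46 ± 0.40 in L against NP (adjusted p = 4.2e-10). Its near-identical neighbour Hspa1b could share reads with it, so how the UMIs divide between the 2 genes is uncertain.

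Hspa1a had the same order of stages in the other cells of these libraries. In basal cells Hspa1a was at 34.1 and 16.4 CPM in NP, at 311 and 104 in G, at 1577 and 1013 in L and 70.4 in PI2, and in luminal cells at 57.0 and 67.5 CPM in NP, at 552 and 266 in G, at 2250 and 1020 in L and 81.7 in PI2. These genes moved with stage together with the matrix, chemokine and antioxidant genes above, and their part in those results was not tested. The Hspa1a promoter is shown for its heat-shock element. GAANNTTC, a core of that element, was searched on both strands of the 250 bases before the start (RefSeq, GRCm38.p6) and is in 6.69% of all 32851 promoters. The window, chr17:34972157-34972406 on the − strand, held 1 match, in capitals, starting 104 bases before the start site.
Hspa1a: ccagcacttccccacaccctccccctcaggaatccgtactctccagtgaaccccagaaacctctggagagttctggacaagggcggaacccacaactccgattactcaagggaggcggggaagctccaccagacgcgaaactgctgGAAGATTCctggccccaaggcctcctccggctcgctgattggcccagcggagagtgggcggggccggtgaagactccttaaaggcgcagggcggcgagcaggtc

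**Figure D4:**
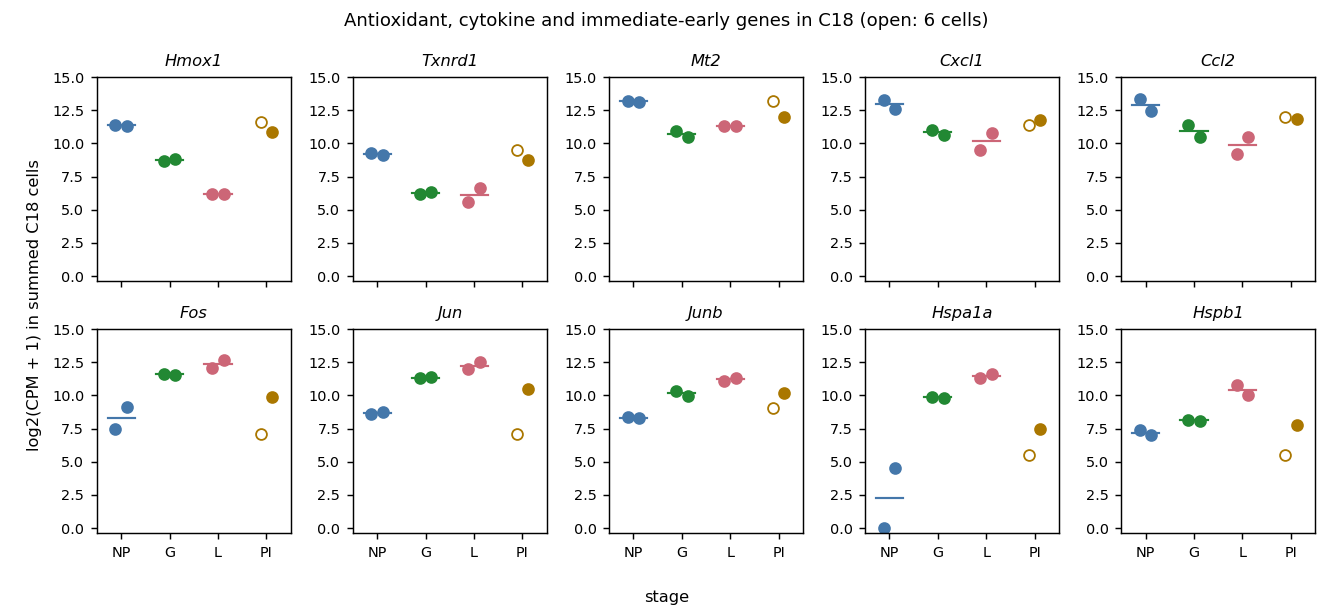
Levels of 10 stress and chemokine genes in C18 as log2(CPM + 1), with a point for each mouse, a line at the mean of the 2 mice of a stage and an open point for PI1 with its 6 cells. Among the 7 libraries tested, Hmox1, Txnrd1, Mt2, Cxcl1 and Ccl2 are highest in NP, and Fos, Jun, Junb, Hspa1a and Hspb1 are highest in L.

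Contractile genes of the myofibroblast list rose from NP to G and L, with 7 of 11 higher in G, 9 higher and 1 lower in L against NP, and 7 higher in L against G. Of all genes, 15.4% were higher in G, 18% higher and 20.3% lower in L against NP, and 4.5% higher in L against G. Acta2, smooth muscle actin, was at 43.3 and 25.0 CPM in NP, at 177 and 233 in G, at 1216 and 611 in L and 87.0 in PI2, higher in L than in NP by 4.84 ± 0.42 (adjusted p = 2.4e-07). In the same L mice the endothelial cluster C19 held 1285 and 964 CPM of Acta2 against 26570 and 22780 CPM in basal cells, which express Acta2 as a defining gene. Krt14, a keratin of the basal layer, was at 268 and 251 CPM in C18 of L1 and L2, at 303 and 318 CPM in C19 and at 296 and 276 CPM in C15. Acta2 and Krt14 in C18 of L were thus below their level in C19. C19 also held the pericyte gene Rgs5, at a mean of 335 CPM in L against 7.29 CPM in C18. Whether the transcripts in C18 are background or expression was not tested for these or for the other contractile genes. In G, Acta2 was at 1246 and 870 CPM in C19, above C18.

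Milk protein transcripts in C18 were also higher in G and L than in NP, but Csn2 and Csn1s1 were lower in L than in G. Csn2 (beta-casein) had no UMI in the NP mice, was at 638 and 299 CPM in G, 230 and 199 in L and 14.5 in PI2, and was at least 76.6-fold higher in G and at least 34.5-fold higher in L than in NP. Basal cells of the G mice held 633 and 352 CPM, and C19 of the L mice 196 and 222 CPM, which is close to C18, while luminal cells held 29530 and 18730 CPM in G and 48890 and 46990 CPM in L. The 8 milk genes summed to 14.4 and 15.6 CPM in C18 of NP, to 1725 and 824 in G, to 887 and 906 in L and 87.0 in PI2. Luminal keratins ran the other way. Krt18 was at 419 and 478 CPM in C18 of NP, at 67.9 and 53.2 in G, at 20.5 and 13 in L and at 138 in PI2, and was at 1864 and 1155 CPM in basal cells of NP, 183 and 197 in G and 208 and 184 in L. The 13 epithelial markers summed to 1379 and 1337 CPM in NP and to between 254 and 515 CPM in the other libraries. Their part in the stage differences of C18 was not tested, except that without the 6 cells of over 10 epithelial marker UMIs and the 3 of over 5 immune marker UMIs the calls numbered 1505 in G and 1838 in L against NP.

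**Figure D5:**
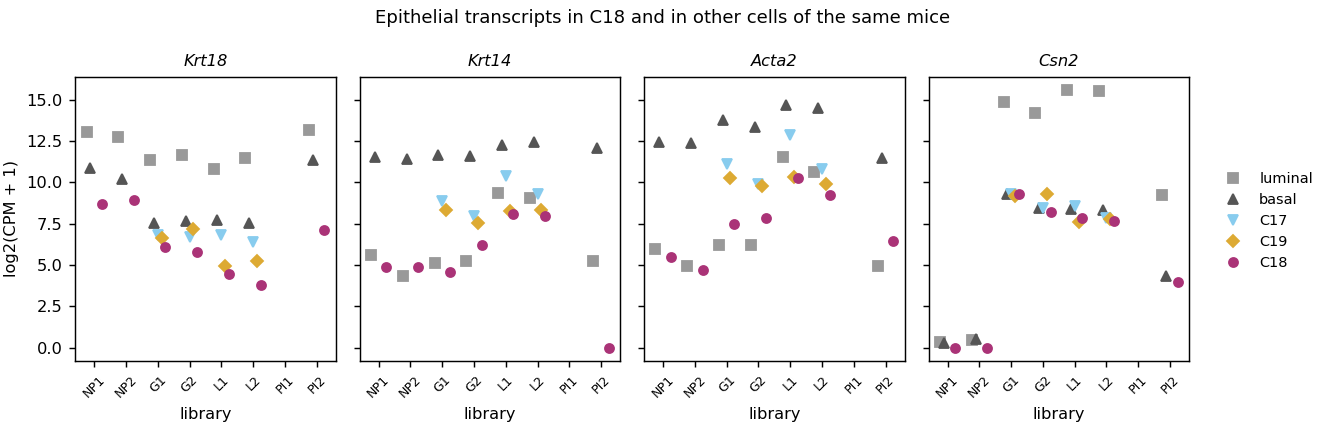
CPM of Krt18, Krt14, Acta2 and Csn2 in C18, C17, C19, basal and luminal cells of each library on a log axis (PI1 not drawn). In L, C18 lies near C19 for Krt14, at 251 and 268 CPM, and for Csn2, at 199 and 230 CPM, and C17 lies above both for Krt14.

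Of 8 cell division genes tested, 6 rose in G and 4 in L against NP (15.4 and 18% of all genes), and none was called between L and G. The 18 genes of the list summed to 50.5 and 65.6 CPM in NP, to 869 and 253 in G, to 340 and 126 in L and to 79.8 in PI2, so L1 lay above G2. Cdk1, the mitotic kinase, was at 0 CPM in both NP mice, 95.1 and 26.6 in G, 22.9 and 4.34 in L and 0 in PI2, at least 10.3-fold higher in G (25 UMIs against none). Top2a had 24 UMIs in G and none in NP, at least 9.88-fold higher, and G1 held more than G2 (99.6 against 13.3 CPM). Without NP2 the adjusted p was 0.078 for Cdk1 and 0.139 for Top2a, and Mki67, a general proliferation marker, was too low to be tested. Of 7 immune genes tested, 4 rose in G (15.4% of all genes rose), among them Lyz2. Lyz2 stood at 4.53 CPM in G1 and 213 CPM in G2 and so came from 1 library. None of the 6 genes of antigen presentation on class I was called in G or L against NP. Of 13 interferon response genes 1 rose in G and 2 in L (15.4 and 18% of all genes), so these rises were no more frequent than over all genes. Of 24 genes of protein secretion and the unfolded protein response, 6 rose and 2 fell in G (15.4 and 15.7% of all genes) and 4 rose and 2 fell in L against NP (18 and 20.3% of all genes), so the rises in L lay near the share over all genes.

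Between PI2 and NP 55 genes were called (1.1% of all genes), or 29 without NP2. In this comparison of 1 mouse with 2, a gene that was not called is not shown to be alike. The 4 basement membrane collagens had a median log2 fold change of −1.04 in PI2 against NP, with none called. Besides Col3a1 and Postn, Ptn (pleiotrophin) was lower in PI2, at 29.0 CPM against 202 and 237 in NP (−2.97 ± 0.66, adjusted p = 0.031, or 0.154 without NP2). Wisp2, a matricellular Wnt target, was higher, at 247 CPM against 7.22 and 12.5 CPM in NP (4.42 ± 0.62, adjusted p = 0.00067). In PI2 against G 5.04% of all genes were higher, among them Anxa3 (3.33 ± 0.31, adjusted p = 1.9e-06). Gas6, the ligand of the TAM receptors that clear dying cells, was at 950 CPM in PI2, 274 and 65.6 in NP, at 81.5 and 26.6 in G and at 219 and 230 in L, and was higher in PI2 than in each of the 3 stages (2.65 ± 0.48 against NP, adjusted p = 0.0067, or 0.0814 without NP2). Cxcl13, the B cell attractant, was at 384 CPM in PI2 and 28.9 and 18.7 in NP (4.06 ± 0.67, adjusted p = 0.0027), a call lost without NP2 (adjusted p = 0.139). Il6 was at 537 CPM in PI2 against 52.1 and 139 in L (2.76 ± 0.45, adjusted p = 0.00078). Sfrp5, a Wnt inhibitor, had 72 UMIs in PI2 and none in NP, at least 79.8-fold higher, but these came from 2 of 38 cells. In the 6 cells of PI1 no gene of the growth factor list, which includes Gas6, was above 316 CPM. The Gas6 level of PI2 was thus not reached in PI1.

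Among the genes of largest change, chosen by a rule on size, several lie outside these lists. Il1rl1, the receptor of interleukin 33, was at 888 and 896 CPM in NP, at 45.3 and 160 in G, at 15.8 and 17.3 in L and 58.0 in PI2, lower in L than in NP by −5.81 ± 0.41 (adjusted p = 1.7e-08). The stages NP, G and L did not overlap in this gene. Chac1, a glutathione-degrading enzyme induced by amino acid stress, had 41 UMIs in NP and none in L, at least 44.6-fold lower in L. Zbtb16, a transcription factor induced by glucocorticoids, had 132 UMIs in L and none in NP, at least 13.5-fold higher, at 91.5 and 69.4 CPM in the 2 L mice. Angpt2, an antagonist of the endothelial receptor Tie2, was at 190 and 173 CPM in G against 20.5 and 4.34 in L (−3.28 ± 0.37, adjusted p = 2e-05). Myoc, a secreted glycoprotein, was at 43.3 and 68.7 CPM in NP, at 0 in both G mice, at 110 and 95.4 in L and at 189 in PI2, at least 13.4-fold higher in L than in G. Adam12, a metalloprotease, was at 77.0 and 93.1 CPM in G and 4.73 and 13 in L (−3.60 ± 0.51, adjusted p = 0.00018).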

How the data were processed

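The authors deposited raw UMI counts per gene and cell (27998 genes) with an annotation of each cell. Per the labels, reads had been mapped with STAR to mm10; per the study's methods, cells were filtered on UMIs, genes and mitochondrial share, and clustered on a shared-nearest-neighbour graph followed by hierarchical clustering. No doublet caller was run here, and barcodes shared between libraries had been removed by the authors. UMIs of the 529 C18 cells were summed per mouse; libraries of at least 20 such cells were kept. The 5000 genes passing edgeR's filter on low counts were tested with edgeR 4.0.16 (R 4.3.3; TMM, glmQLFit and glmQLFTest) over all 7 libraries, with Benjamini-Hochberg adjustment. In counts simulated for L against NP over 4506 genes, 16% of 2-fold and 78% of 4-fold changes were recovered, and 5 of 99 calls were false. The simulation gave every gene the same spread (dispersion 0.0292) and changed 100 genes for each fold. It therefore does not cover spreads that differ between genes. Alternatives were DESeq2 1.42.0, other scalings and filters, a fold threshold (glmTreat), equal cell numbers and depth, a replicate block, and leaving out each library. Shares of cells used exact Clopper-Pearson intervals. For the difference from basal cells limma 3.58.1 was added. Named genes were the listed genes and, per comparison, the 12 called genes of largest change in each direction. The members and gene lists were chosen with earlier results of these data known. Promoters came from RefSeq (GRCm38.p6) and gene positions from GENCODE vM21. Some genes are not reported here.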

Additional observations from a re-analysis of the deposited data

Results flagged for a closer look

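The change from NP to L differed between C18 and basal cells of the same mice for 4 stress and inflammatory genes. For Mt1 the difference, C18 minus basal on the log2 scale, was −3.61, from −1.37 in C18 and 2.22 in basal cells. Mt2 differed by −2.98, from −1.89 and 1.07. Hmox1 differed by −4.15, from −5.22 and −1.03, and Ptgs2, the inducible cyclooxygenase, by −4.95, from −2.26 and 2.54. These passed an edgeR interaction test that used 1 spread shared over all genes, which called 1445 of 10745 genes (13.4%). With limma on the log2 ratio of C18 to basal cells per mouse none of the genes was called in L against NP (1949 genes had an unadjusted p under 0.05), and the adjusted p was 0.0773 for Mt1, 0.0796 for Mt2, 0.0668 for Hmox1 and 0.0668 for Ptgs2. The 2 tests therefore gave different calls.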

How the results depend on the processing

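In the order L-NP, G-NP, L-G, PI-NP, PI-L and PI-G the calls numbered 1916, 1554, 392, 55, 342 and 470. DESeq2 called 512, 549, 146, 30, 114 and 189 genes, a fold threshold (glmTreat) 246, 134, 44, 1, 24 and 58, and equal cell numbers per library 753, 943, 219, 21, 132 and 292. Equal depth gave 929 in L-NP, 239 in L-G and 215 in PI-L, and no filter gave 86 in PI-NP. Cells without epithelial UMIs gave 153 in L-G, 34 in PI-L and 119 in PI-G and could not be run for NP. Libraries of at least 40 cells left only L-NP, with 1181, and libraries of at least 5 cells gave 30 in PI-NP. A fit on the 2 stages alone gave 114 in PI-NP and 152 in PI-L. With library totals as the only scaling the split of higher and lower calls was 960 and 614 in G-NP (771 and 783 with TMM), 188 and 197 in L-G (225 and 167) and 199 and 247 in PI-G (252 and 218), and the median of all genes in G-NP moved from 0.03 to 0.19. Leaving out 1 library gave 778 to 1946 in L-NP (778 without NP2, 893 without L1), 746 to 1496 in G-NP (746 without NP2, 852 without G1), 229 to 466 in L-G (229 without G2, 245 without G1), 29 to 109 in PI-NP (29 without NP2, 94 without NP1, 98 without G2, 107 without L1, 109 without L2), 180 to 447 in PI-L (180 without L1) and 323 to 587 in PI-G. The mice share only a number: over 5000 genes the deviations of same-numbered mice correlated at 0.0638 (NP and G), −0.00357 (NP and L) and −0.00509 (G and L). With a replicate block PI-NP gave 83 calls and the other comparisons 296 to 1744. The direction was reversed for Il33 in PI-L (−2.20) and PI-G (−0.635) and Sfrp5 in PI-L (−6.62) at equal cell numbers, and for Lcn2 in L-NP without NP2 (0.276, against down to −1.60 without NP1); the cause was not tested. The other 937 of 941 named changes kept their direction. However, 419 of the 941 kept it but no longer passed with DESeq2, 686 with the fold threshold (glmTreat) and 245 at equal cell numbers. Thinned to 1000 UMIs, cells with Col1a1, Col3a1 and Dcn were 80.7, 84.2 and 97.7%, with Pi16 32.8% (NP2), 6.79% (G1) and 58.8% (L1), and with Col15a1 11 and 14.4% (NP), 54.8 and 68.3% (G), 18.2 and 14.8% (L) and 6.80% (PI2). As a mean over cells, Col1a1 was at 4045 and Col3a1 at 6713 CPM in L. Depth limits the smallest libraries, where 3 UMIs are 21.7 CPM (NP1) and 21.8 CPM (PI2).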

Other observations

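The PI1 mouse had 6 C18 cells with 22155 UMIs in all, in which 3 UMIs correspond to 135 CPM. These cells held 1174 CPM of Col3a1, 3205 CPM of Hmox1 and 1174 CPM of Pi16, which was found in 5 of the 6 cells. Mgp and Sfrp5, both higher in PI2 than in NP, had no UMI in PI1.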
